A study of Mus musculus with 12 samples.

Results

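Nuclear RNA of mouse spinal cord microglia was compared between 14 days and 3 days after injury. The comparison took the 3 libraries labelled 14 days and the 3 labelled 3 days, 6 of the 12 libraries of the series, and all 49585 genes of the count table. Each library at 14 days, and each at 3 days, came from C57BL/6 mice with an injured cord and pooled cord tissue around the lesion from 3 animals. The other 6 libraries, 3 at 7 days and 3 from sham-operated mice that carry the 7-day label, entered the fit, where they add to the estimate of the spread between pools; their levels are given as further groups, and the sham libraries also serve as a comparison for each time. Nuclei carrying green fluorescent protein (GFP) were captured with an antibody on magnetic beads. The labels call them microglia-specific and name no promoter or line behind the GFP, so the sources used here do not say which other cells might carry it. The p-values measure the spread between pools, not between single animals.

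Microglia are the resident macrophages of the central nervous system. After an injury they divide, take up debris and lose part of the gene expression they have in healthy tissue, while monocytes from blood enter the lesion and can take on similar profiles. Microglia near damage or plaques are known to raise a set of lysosomal and lipid genes, often called the damage-associated set, and type I interferon raises another set through transcription factors that include STAT2 and IRF9. Division is driven by genes that are switched on in late G1, S and G2/M in turn, the last of these through promoters that often hold CCAAT boxes and a cell cycle homology region.

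At 14 days the libraries held 6313722, 4037508 and 4272439 counts (replicates 1, 2 and 3), and at 3 days 4344015, 6610377 and 10670804. Enough counts for a test were present for 18451 genes. Microglial genes were detected in all 6 libraries: Csf1r, the receptor for colony-stimulating factor 1, averaged 1194 ± 127 CPM (counts relative to the TMM-scaled total of the library) at 14 days and 1100 ± 64.0 CPM at 3 days (SD, n = 3 each), and Tmem119, a microglial surface protein, averaged 142 ± 17.2 and 156 ± 6.76 CPM at 14 and 3 days. The first principal component of the 6 libraries took 56.8% of the variance and put the 14-day libraries between -48.95 and -43.60 and the 3-day libraries between 37.06 and 61.13. The second took 14% and separated 3-day replicate 1, at 41.36, from 3-day replicate 3, at -38.89. The pools differed in sex-linked RNA. The summed level of 4 Y-linked genes was 17.7, 235 and 435 CPM in the 14-day libraries and 0.460, 290 and 0.375 CPM in the 3-day libraries.

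Fewer genes were higher at 14 days than lower. At an adjusted p under 0.05 in edgeR's quasi-likelihood test, 1349 of 18451 genes changed (7.31%), of which 401 were higher at 14 days (2.17%) and 948 were lower (5.14%). Among changes of more than 2-fold, 226 genes were higher and 713 lower, and among those of more than 8-fold, 7 were higher and 85 lower. The median log2 fold change of all tested genes was -0.01. The 3 libraries of each time did not overlap in 43.1% of tested genes, 20.1% with the 14-day libraries above and 23% with them below. The count differed with the libraries in the fit, which also changed the number of genes tested: a fit of only the 6 libraries called 4886 of 17076 genes, 2133 higher and 2753 lower, and leaving out sham replicate 4 from the 12 gave 2627 of 19468. On the deposited RPKM, limma called 1219 genes, of which 54.4% were lower, against 70.3% on counts. Without 14-day replicates 1, 2 and 3 in turn the count fell to 450, 479 and 470, and without 3-day replicates 1, 2 and 3 to 844, 753 and 435.

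**Figure D1:**
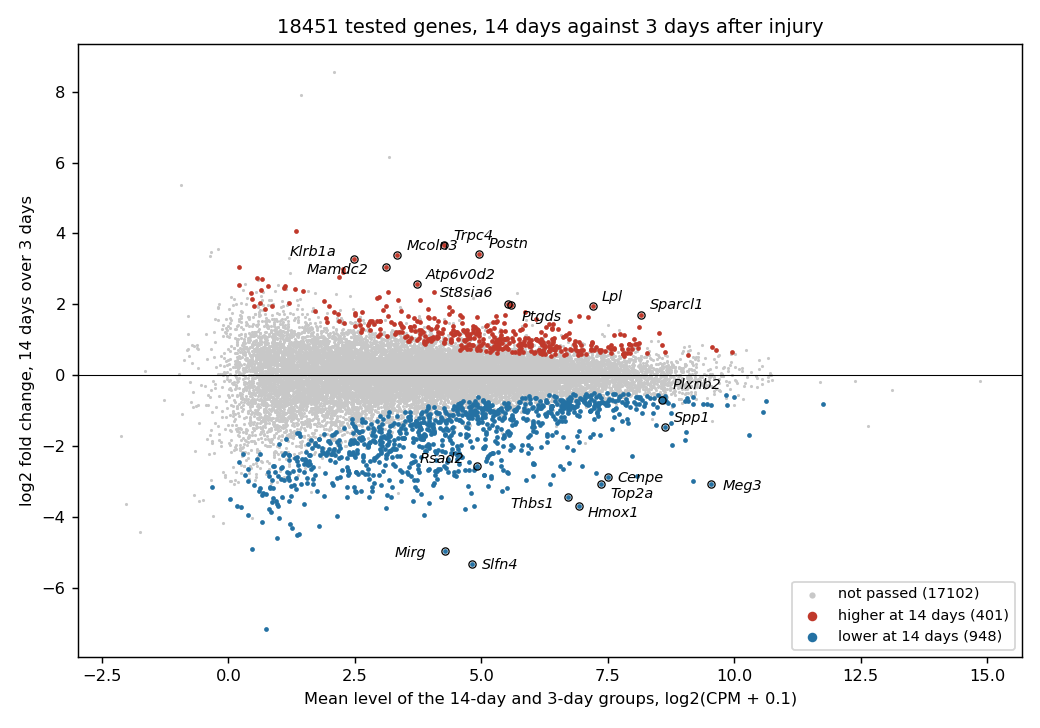
Fold changes of all tested genes. The x axis is the mean of the 14-day and 3-day group levels as log2(CPM + 0.1) and the y axis the log2 fold change, 14 days over 3 days. Each point is 1 gene, with 401 genes higher at 14 days in red, 948 lower in blue and the rest in grey; circled genes are named in the text. Among genes that passed, the falls reach further from 0 than the rises do, with 85 against 7 genes past 8-fold.

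Among named genes that reached 10 CPM at the higher time and whose libraries did not overlap, with predicted genes and pseudogenes passed over, the largest rise was that of Trpc4, a calcium-permeable cation channel. Its level was 40.7, 32.5 and 33.0 CPM in the 14-day libraries and 3.19, 2.43 and 2.79 CPM in the 3-day libraries, with 15.6 CPM at 7 days and 1.19 CPM in sham. The 14-day libraries all lay far above the 3-day libraries, giving a log2 fold change of 3.66 with an SE of 0.47 (edgeR adjusted p = 0.000319). Postn, which encodes the matrix protein periostin, had 53.0, 58.0 and 60.1 CPM at 14 days and 3.64, 5.76 and 6.15 CPM at 3 days. It rose by 3.42 ± 0.33 in log2 units (edgeR adjusted p = 6.63e-05), and its sham level was 7.41 CPM. Mcoln3, a cation channel of the endolysosome, had 16.9, 19.4 and 18.9 CPM at 14 days and 0.683, 2.12 and 2.11 CPM at 3 days, which is 3.39 ± 0.47 in log2 units (edgeR adjusted p = 0.000564). It was almost undetected in sham, at 0.0762 CPM, and stood at 12.8 CPM at 7 days.

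The other largest rises included further genes of the endolysosome, of lipid handling and of the cell surface. Klrb1a, a lectin-like receptor better known from natural killer cells, averaged 10.0 ± 0.340 CPM at 14 days and 1.02 ± 0.496 CPM at 3 days (log2 fold change 3.27). Mamdc2 rose by 3.05 on the log2 scale and Atp6v0d2, a subunit of the proton pump that acidifies lysosomes, by 2.57. St8sia6, a sialyltransferase, averaged 74.3 ± 7.99 CPM at 14 days and 18.3 ± 5.73 CPM at 3 days (log2 fold change 2.00), and Ptgds, a prostaglandin D synthase, 76.4 ± 7.33 and 19.3 ± 2.06 CPM at 14 and 3 days (1.98). Lpl, Stap1, Fam227b, Cst7, Sparcl1, Cst3 and Slamf8 completed the 15, with log2 fold changes of 1.65 to 1.94. The call was lost for Atp6v0d2 without 14-day replicate 1 (edgeR adjusted p = 0.0601) or 3-day replicate 2 (0.0551), and for Mamdc2 without 14-day replicate 1 (0.0837) or 2 (0.0603) or 3-day replicate 3 (0.110). That of Cst3 was lost without 14-day replicate 2 (edgeR adjusted p = 0.0688) or 3-day replicate 3 (0.0719), and that of Fam227b without any 1 of the 6 libraries (edgeR adjusted p of 0.0677 to 0.106).

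Among the 15 largest falls were genes of division, heme breakdown, the Schlafen family and the nervous system. Slfn4, a Schlafen gene known to be induced by interferon in macrophages, had 2.41, 0.234 and 1.11 CPM in the 14-day libraries and 16.4, 81.2 and 68.4 CPM in the 3-day libraries. The 3-day libraries spread widely but none reached the 14-day range, and the fold change was -5.33 ± 0.62 in log2 units (edgeR adjusted p = 0.000179). Slfn1 of the same family had a log2 fold change of -3.38 ± 0.53. Hmox1, the inducible heme oxygenase that breaks down heme to iron, carbon monoxide and biliverdin, averaged 17.7 ± 4.52 CPM at 14 days and 226.8 ± 46.3 CPM at 3 days (SD, n = 3 each). It fell by 3.69 in log2 units (edgeR adjusted p = 4.48e-05), with a sham mean of 8.22 CPM. Thbs1, the matrix glycoprotein thrombospondin 1, had 16.4, 19.9 and 16.7 CPM at 14 days and 234, 243 and 104 CPM at 3 days, or -3.45 ± 0.35 in log2 units (edgeR adjusted p = 8.06e-05).

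Of the remaining largest falls, Kif18b, Troap, Cdc25c, Kif2c, Spag5, Fam64a and Ska1 serve mitosis and had log2 fold changes of -3.68 to -3.27. The other 4, Mirg, Vwa5b2, Mir124a-1hg and Celsr3, had a different course. Their means were 1.19, 3.46, 3.14 and 7.95 CPM at 14 days and 37.4, 47.6, 33.5 and 76.9 CPM at 3 days, and the sham means of 18.1, 25.0, 25.8 and 31.7 CPM lay between these. Each was lower at 14 days than in sham as well (edgeR adjusted p of 0.000982 for Mir124a-1hg, 0.00220 for Celsr3, 0.00417 for Vwa5b2 and 0.00718 for Mirg). Mir124a-1hg is the host transcript of a neuronal microRNA, and Celsr3 is a cadherin known from axon guidance. The adjusted p of all 15 falls stayed under 0.05 when any 1 of the 6 libraries was left out.

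**Figure D2:**
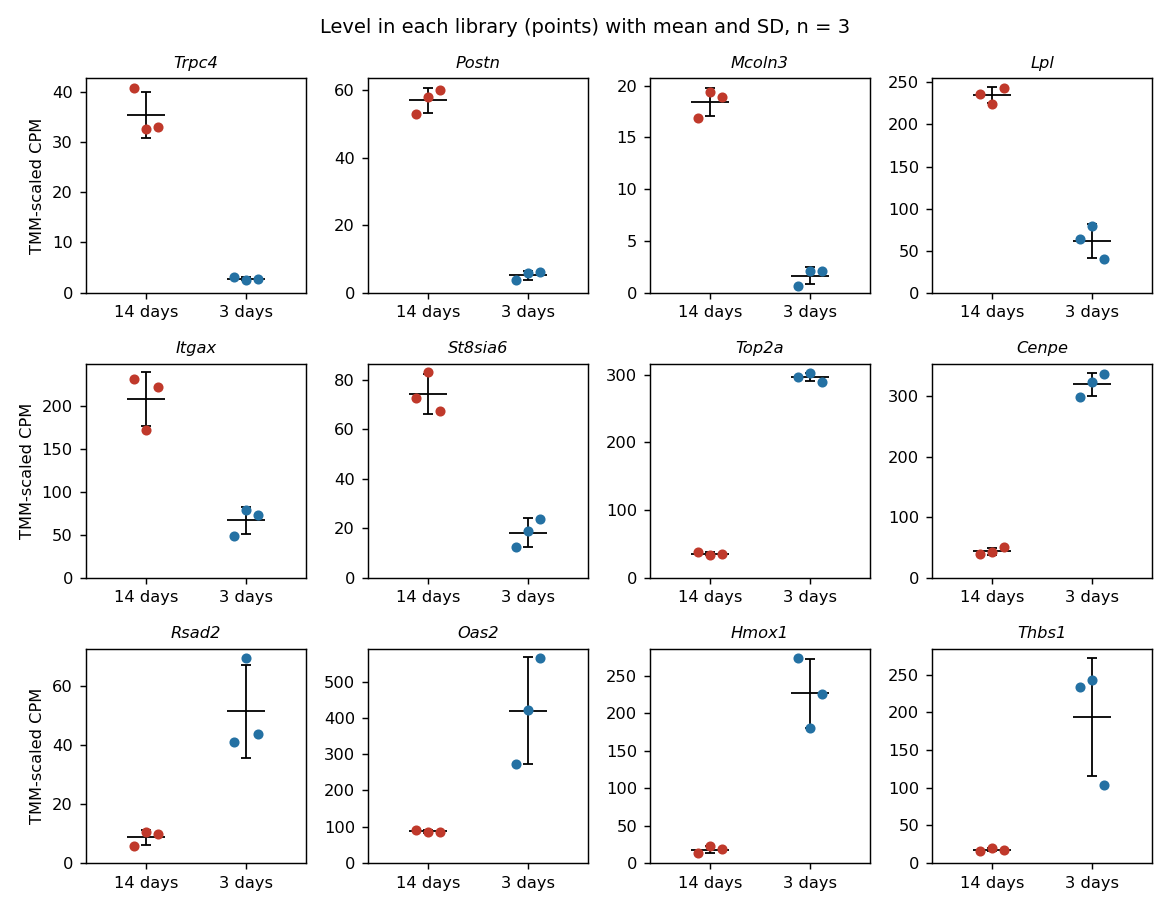
Levels of 12 genes in each library, in TMM-scaled CPM on axes that start at 0. Points are the 3 libraries at 14 days (red, left) and at 3 days (blue, right), with the mean and SD. The first 6 genes were higher at 14 days and the last 6 lower, and in none of them do the times overlap. Non-overlap was a condition for naming Trpc4, Postn, Mcoln3, Lpl, St8sia6, Hmox1 and Thbs1 among the largest changes. Of all tested genes, 43.1% do not overlap.

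Every gene of the mitosis list fell. All 24 members were tested and all 24 were lower at 14 days, beside 5.14% of all tested genes. They had log2 fold changes of -3.34 to -1.53 and a median of -2.72. Their summed level was 443, 457 and 483 CPM in the 14-day libraries and 3138, 3173 and 2852 CPM in the 3-day libraries, so the times were far apart and each time was tight. At 7 days the sum was 595 CPM and in sham 480 ± 198 CPM. In these bulk pools, fewer dividing cells and less RNA per dividing cell cannot be told apart. Cenpe, a kinesin that links chromosomes to the spindle, had 39.2, 41.8 and 50.6 CPM at 14 days and 298, 324 and 336 CPM at 3 days (log2 fold change -2.87 ± 0.19, edgeR adjusted p = 2.88e-06). Top2a, the topoisomerase that untangles replicated chromosomes, had 38.0, 33.7 and 34.5 CPM at 14 days and 297, 303 and 290 CPM at 3 days (-3.07 ± 0.28, edgeR adjusted p = 4.48e-05). Kif4, Anln and Kif11, which act on the spindle and at the cleavage furrow, had log2 fold changes of -2.90, -1.74 and -2.84. Mki67, the proliferation marker Ki-67, averaged 129 ± 16.6 CPM at 14 days, 1034 ± 108 CPM at 3 days and 153 ± 89.4 CPM in sham. Leaving out 1 library at a time kept 19 to 22 of the 24 calls.

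Genes of DNA replication fell by less. Of 23 tested members of 24, 16 were lower at 14 days, 7 did not pass and none was higher. Over all tested genes 5.14% were lower and 2.17% higher. The median log2 fold change of the list was -1.32. The sum was 301, 269 and 274 CPM at 14 days and 654, 675 and 626 CPM at 3 days, with 337 CPM at 7 days and 233 ± 8.32 CPM in sham. Prim1, which lays down RNA primers, averaged 11.8 ± 3.48 CPM at 14 days and 40.1 ± 2.67 CPM at 3 days (log2 fold change -1.75 ± 0.25). Rrm2, a subunit of ribonucleotide reductase, averaged 3.69 ± 0.157 and 20.7 ± 5.95 CPM at 14 and 3 days (-2.48 ± 0.38). Pole, the catalytic subunit of a leading-strand polymerase, and Mcm10, which acts at replication origins, had log2 fold changes of -2.23 and -3.04. The number of falls was smaller whichever library was left out. It was 9, 6 and 7 without 14-day replicates 1, 2 and 3, and 11, 11 and 10 without 3-day replicates 1, 2 and 3.

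The regulators of G1 mostly fell or did not pass. Of 19 tested, 7 fell, 1 rose and 11 did not pass. Over all tested genes 5.14% fell and 2.17% rose, and 1 rise in a list of this size is near that share. The falls were led by the E2F family repressors E2f8 (8.48 ± 1.02 CPM at 14 days and 51.3 ± 4.51 CPM at 3 days, log2 fold change -2.60) and E2f7 (-2.82), and by cyclin E1, Ccne1 (-2.30). Cdk6, a kinase that drives G1 entry, went the other way, with 376, 322 and 345 CPM in the 14-day libraries, 198, 220 and 192 CPM in the 3-day libraries and 356 ± 34.1 CPM in sham. It rose by 0.77 ± 0.15 in log2 units (edgeR adjusted p = 0.00644), and the times did not overlap. Leaving out 1 library at a time kept the rise of Cdk6 but called 3 falls without each of the 14-day replicates and without 3-day replicates 2 and 3, and 4 without 3-day replicate 1.

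The promoters of the mitotic genes were searched for the CCAAT box (CCAAT) and the cell cycle homology region (TTTGAA), on both strands, in the 250 bases before each RefSeq start on GRCm38.p6. CCAAT stood in 15 of the 20 matched mitosis promoters and in 34.5% of the promoters of all 27025 genes of the table, TTTGAA in 6 of 20 and in 16.3%, and both together in 5 of 20 and in 5.73%. In 2 other lists, CCAAT stood in 13 of 20 DNA replication promoters and in 8 of 15 homeostatic promoters, and TTTGAA in 3 of 20 and 1 of 15. Top2a and Kif11 are shown because they fell about as far as the median of the list and hold both motifs; capitals mark every match to either motif on either strand. The Top2a window is chr11:99024190-99024439 on the minus strand and the Kif11 window chr19:37376132-37376381 on the plus strand, each written 5′ to 3′ along its gene.
Top2a: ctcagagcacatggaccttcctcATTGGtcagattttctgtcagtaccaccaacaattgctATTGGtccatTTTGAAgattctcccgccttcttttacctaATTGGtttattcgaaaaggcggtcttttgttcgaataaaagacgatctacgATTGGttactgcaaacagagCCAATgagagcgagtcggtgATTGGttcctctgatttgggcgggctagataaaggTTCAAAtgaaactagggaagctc
Kif11: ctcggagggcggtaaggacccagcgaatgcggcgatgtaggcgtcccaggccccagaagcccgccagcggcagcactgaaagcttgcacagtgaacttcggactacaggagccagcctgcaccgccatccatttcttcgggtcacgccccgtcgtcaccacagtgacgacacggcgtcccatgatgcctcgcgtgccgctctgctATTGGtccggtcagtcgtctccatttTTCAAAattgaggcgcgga
The Top2a window holds 6 CCAAT boxes, whose first bases lie 58 to 227 bases before the start, and 2 TTTGAA matches. The Kif11 window holds 1 of each, 45 and 19 bases before the start. These matches describe letters in the window and not sites of binding.

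Interferon-stimulated genes fell as a group. All 24 members were tested. Of these, 18 were lower at 14 days, 6 did not pass and none was higher. Over all tested genes 5.14% were lower and 2.17% higher. The members had log2 fold changes of -2.70 to -0.60 and a median of -1.64. Their summed level was 1468, 1425 and 1525 CPM at 14 days and 3466, 3331 and 4778 CPM at 3 days, with 2250 CPM at 7 days and 1004 ± 24.2 CPM in sham. Oas2, a sensor of double-stranded RNA that activates RNase L, had 90.7, 86.0 and 84.4 CPM at 14 days and 272, 421 and 566 CPM at 3 days. The 3-day libraries differed among themselves by more than 2-fold and all lay above the 14-day libraries (log2 fold change -2.27 ± 0.25, edgeR adjusted p = 0.000149). Stat2, part of the transcription factor that type I interferon activates, had 180, 163 and 187 CPM at 14 days and 609, 554 and 918 CPM at 3 days (-1.97 ± 0.23, edgeR adjusted p = 0.000205). Oasl1, known to limit translation of Irf7, and Rsad2, which encodes the antiviral protein viperin, had log2 fold changes of -2.70 and -2.57. Leaving out 1 library at a time gave 14 to 17 falls and no rise.

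The interferon-stimulated response element was searched as 2 copies of GAAA with any 2 bases between them, on both strands, in the same windows. It was present in 9 of the 17 matched promoters of the interferon list and in 3.04% of the promoters of all genes of the table. Rsad2 (chr12:26456453-26456702, minus strand) and Ifit3 (chr19:34583279-34583528, plus strand) are shown because both fell and hold the element; capitals mark each match, here read on the other strand.
Rsad2: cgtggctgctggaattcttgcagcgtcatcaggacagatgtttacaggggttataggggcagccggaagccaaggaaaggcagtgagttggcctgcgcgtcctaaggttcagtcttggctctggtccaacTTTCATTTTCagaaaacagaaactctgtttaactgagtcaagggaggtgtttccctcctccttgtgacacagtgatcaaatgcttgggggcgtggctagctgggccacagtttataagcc
Ifit3: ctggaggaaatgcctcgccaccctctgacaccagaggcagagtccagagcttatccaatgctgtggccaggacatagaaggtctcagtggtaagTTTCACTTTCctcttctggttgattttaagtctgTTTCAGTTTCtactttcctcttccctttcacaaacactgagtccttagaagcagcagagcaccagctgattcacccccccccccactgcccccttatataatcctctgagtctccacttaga
Rsad2 holds 1 match, 120 bases before the start, and Ifit3 holds 2, at 156 and 122 bases. Ifit3, a member of the tetratricopeptide family that binds viral RNA, had 18.5, 23.4 and 20.0 CPM at 14 days and 56.9, 57.2 and 86.8 CPM at 3 days (log2 fold change -1.70 ± 0.29, edgeR adjusted p = 0.00257).

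**Figure D3:**
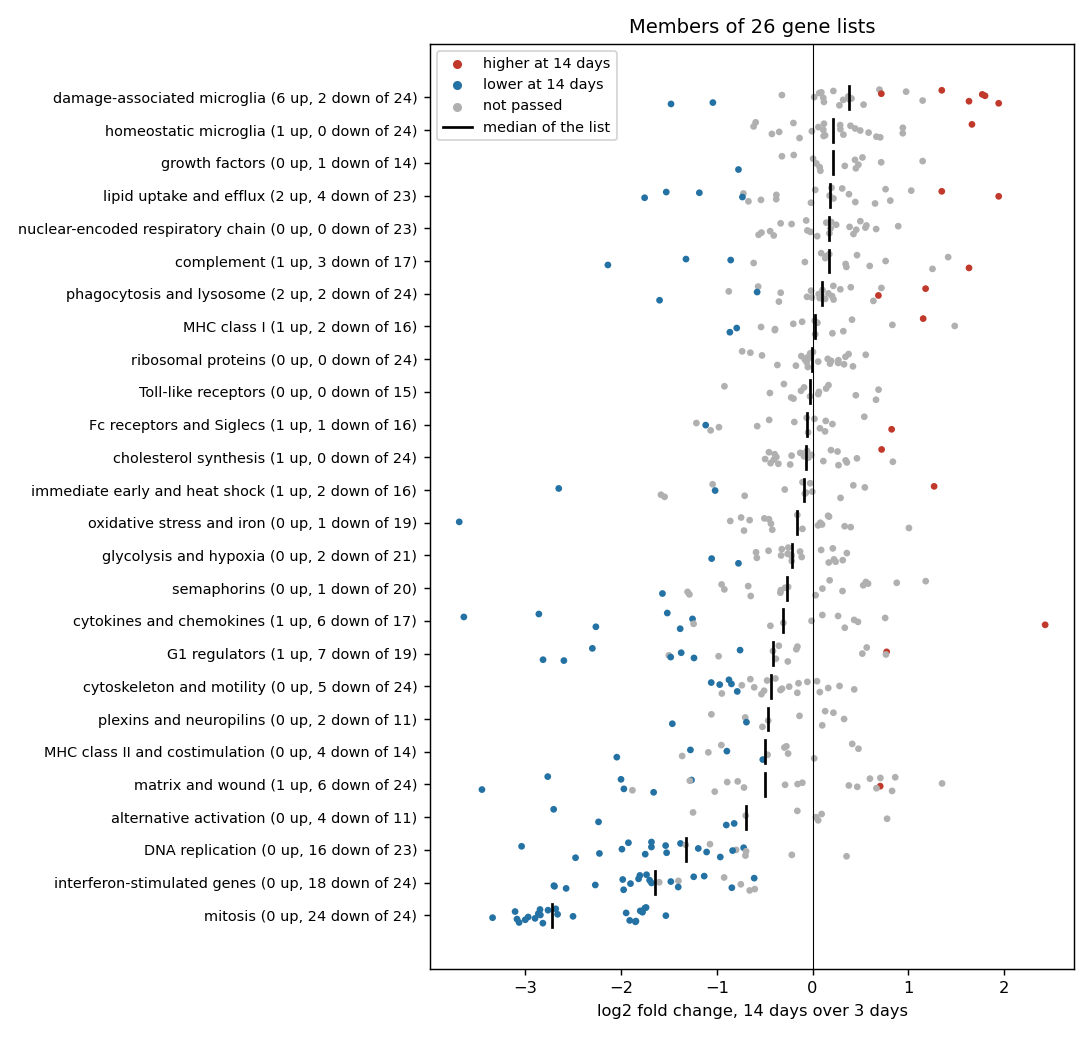
Members of 26 gene lists. The x axis is the log2 fold change, 14 days over 3 days; each point is 1 tested gene, coloured by whether it was higher or lower at 14 days or did not pass, and the black bar is the median of the list. The mitosis list (median -2.72) and the interferon list (-1.64) lie wholly below 0, and the damage-associated list has the highest median (0.38).

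The damage-associated microglia list had more rises than falls. Of 24 tested, 6 rose, 2 fell and 16 did not pass, with a median log2 fold change of 0.38. Over all tested genes 2.17% rose and 5.14% fell, and 2 falls in a list of this size lie near that share. In the fit of only the 6 libraries 10 rose and 3 fell. Lpl, the lipase that frees fatty acids from lipoproteins, had 237, 224 and 243 CPM at 14 days and 64.0, 79.8 and 39.8 CPM at 3 days, against 18.2 CPM in sham (log2 fold change 1.94 ± 0.27, edgeR adjusted p = 0.000525). Itgax, the integrin subunit CD11c, had 231, 173 and 222 CPM at 14 days and 49.2, 78.9 and 72.9 CPM at 3 days (1.63 ± 0.24, edgeR adjusted p = 0.000793). For both, the lowest 14-day library was above the highest 3-day library by more than 2-fold. Cst7, an inhibitor of cathepsins, averaged 16.5 ± 4.44 CPM at 14 days and 4.70 ± 1.18 CPM at 3 days (log2 fold change 1.80). Apoe, the main lipoprotein of the brain, had 312, 586 and 306 CPM at 14 days and 177, 160 and 136 CPM at 3 days (1.35 ± 0.27, edgeR adjusted p = 0.00826). Clec7a and Cd9 had log2 fold changes of 1.77 and 0.72.

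The 2 members that fell were Spp1 and Lilrb4a. Spp1, the secreted protein osteopontin, had 177, 267 and 186 CPM at 14 days and 643, 686 and 426 CPM at 3 days, with 10.7 CPM in sham (log2 fold change -1.48 ± 0.35, edgeR adjusted p = 0.0183). Lilrb4a, an inhibitory receptor, averaged 999 ± 107 CPM at 14 days and 2056 ± 53.6 CPM at 3 days (-1.04 ± 0.23, edgeR adjusted p = 0.0132). Igf1, insulin-like growth factor 1, had 215, 243 and 235 CPM at 14 days and 99.5, 119 and 93.6 CPM at 3 days without overlap. It did not pass in the main fit (1.15 ± 0.37, edgeR adjusted p = 0.0749) and passed under 7 of 18 alternatives. Gpnmb was 400 ± 81.7 CPM at 14 days and 320 ± 56.9 CPM at 3 days, against 1.87 CPM in sham, and its times overlapped. Several of these calls were lost when 1 library was left out, as many calls were over all genes. Apoe lost its call without 3-day replicate 3 (edgeR adjusted p = 0.0578), Clec7a without 14-day replicate 1 (0.0549) or 3-day replicate 3 (0.0760), and Lilrb4a without 14-day replicate 1 (0.0861) or 2 (0.0811). Spp1 lost its call without 14-day replicate 1 (0.109) or 3 (0.103) or 3-day replicate 1 (0.0630) or 2 (0.0746), and Cd9 without any 14-day replicate (0.0592, 0.0772 and 0.0942 without replicates 1, 2 and 3) or without 3-day replicate 2 (0.0676) or 3 (0.110). The falls counted were 0 without 14-day replicate 1, 1 without 14-day replicate 2 or 3 or 3-day replicate 1 or 2, and 2 without 3-day replicate 3; the rises counted were 4, 5 and 5 without the 14-day replicates and 6, 5 and 3 without the 3-day replicates.

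Each time was also set against the same sham libraries, so the values that follow share those libraries and are given side by side. Against sham, 9.82% of tested genes changed at 14 days (5.02% higher, 4.79% lower) and 20% at 3 days (10.9% higher, 9.17% lower). Of the damage-associated list, 20 members were higher than sham at 14 days (median log2 fold change 2.09) and 18 at 3 days (1.47). Of the mitosis list, 2 were higher and 1 lower than sham at 14 days (median 0.43), and 24 were higher at 3 days (3.19). Of the interferon list, 9 were higher than sham at 14 days (0.91) and 24 at 3 days (2.28).

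Of 24 homeostatic microglial genes tested, 1 rose and none fell between the times, beside 2.17% and 5.14% of all tested genes, with a median log2 fold change of 0.21; in the fit of only the 6 libraries 10 rose and 3 fell. P2ry12, the purinergic receptor used to recognise resting microglia, had 174, 234 and 151 CPM at 14 days and 145, 131 and 97.2 CPM at 3 days, against 543 ± 187 CPM in sham. The 14-day libraries lay above the 3-day libraries and well below sham, but P2ry12 did not pass between the times (0.59 ± 0.33, edgeR adjusted p = 0.311). Tgfbr1, a receptor for transforming growth factor beta, averaged 1496 ± 22.6 CPM at 14 days, 917 ± 64.6 CPM at 3 days and 2230 ± 531 CPM in sham. It lay just outside the threshold (0.71 ± 0.21, edgeR adjusted p = 0.0508). Tgfbr1 passed under 8 of 18 alternatives and P2ry12 under 3. The gene that rose was Cst3, a secreted cysteine protease inhibitor that astrocytes also express, with 151, 289 and 118 CPM at 14 days and 63.8, 59.2 and 53.0 CPM at 3 days. The call of Cst3 was lost without 14-day replicate 2 (edgeR adjusted p = 0.0688) or 3-day replicate 3 (0.0719). Against sham, 6 members of the list were lower at 14 days (median -0.37) and 10 at 3 days (-0.49).

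**Figure D4:**
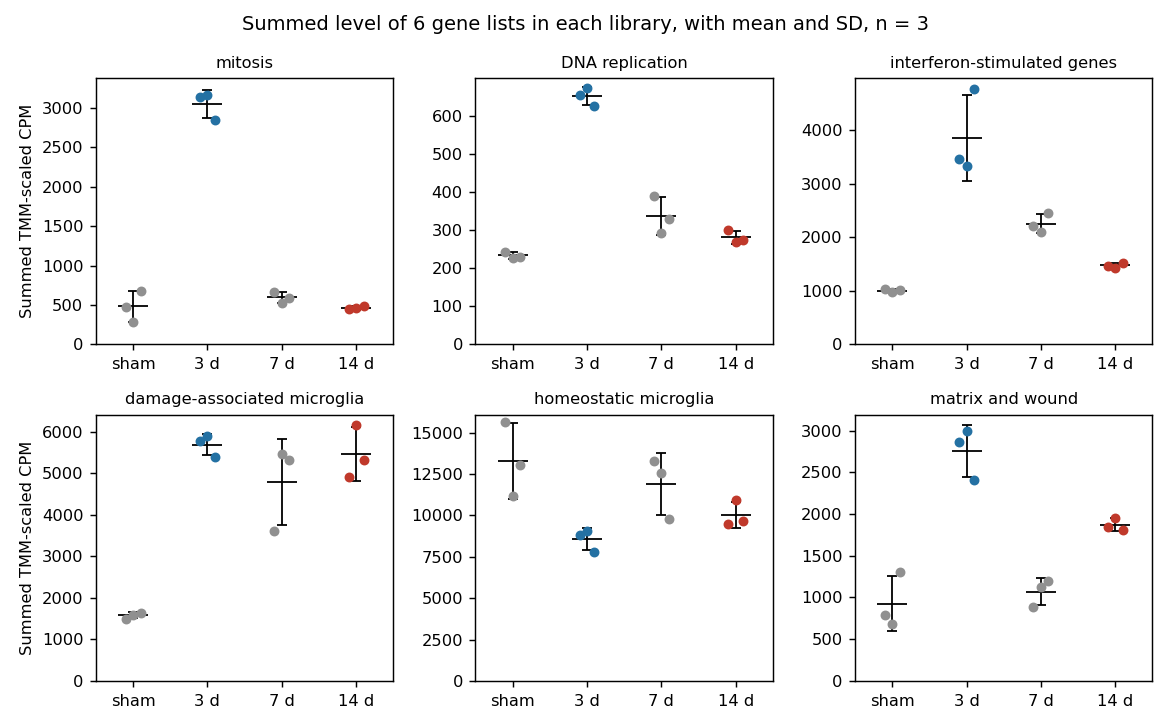
Summed level of 6 gene lists in sham and at 3, 7 and 14 days. The y axes are the summed TMM-scaled CPM of the members and start at 0; points are libraries, with the mean and SD (n = 3). Mitosis averaged 461 CPM at 14 days and 3054 CPM at 3 days, while the damage-associated sum was 5456 and 5688 CPM at 14 and 3 days, both above the sham mean of 1579 CPM.

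Genes of matrix and wound repair mostly fell or did not pass. Of 24 tested, 6 fell and 1 rose, with a median log2 fold change of -0.50. Over all tested genes 5.14% fell and 2.17% rose, and these shares stand beside the counts here and in the lists that follow. Beside Thbs1, the falls were Tgfbi, Vcan, Adam8, Col4a1 and Col4a2. Adam8, a metalloprotease of myeloid cells, had 40.8, 36.7 and 41.2 CPM at 14 days and 254, 308 and 247 CPM at 3 days, with 9.51 CPM in sham (-2.77 ± 0.34, edgeR adjusted p = 0.000277). Tgfbi, a matrix protein induced by transforming growth factor beta, averaged 24.6 ± 1.86 CPM at 14 days and 96.5 ± 13.5 CPM at 3 days (-1.97). Vcan, the proteoglycan versican, averaged 22.4 ± 0.185 and 70.7 ± 10.5 CPM at 14 and 3 days (-1.66). Fn1, which encodes fibronectin, was 440 ± 22.5 CPM at 14 days and 1071 ± 260 CPM at 3 days without overlap and did not pass (-1.28 ± 0.45, edgeR adjusted p = 0.0975). The calls of Col4a1 and Col4a2, chains of basement membrane collagen, were lost without any 1 of the 14-day replicates or without 3-day replicate 3 (edgeR adjusted p of 0.0715 to 0.130), and that of Col4a2 also without 3-day replicate 1 (0.0690) or 2 (0.0602). The gene that rose was Plau, the urokinase plasminogen activator (0.71 ± 0.19, edgeR adjusted p = 0.0366), whose call held only without 3-day replicate 2 among these fits (edgeR adjusted p of 0.0949 to 0.138 in the others).

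Among 17 tested cytokines and chemokines of 24 listed, 6 fell, 1 rose and 10 did not pass. Ccl2, the ligand that recruits CCR2-bearing monocytes, had 5.73, 5.84 and 4.68 CPM at 14 days and 39.6, 51.6 and 27.6 CPM at 3 days (-2.86 ± 0.39, edgeR adjusted p = 0.000486). Tnf averaged 7.33 ± 0.347 CPM at 14 days and 19.1 ± 2.05 CPM at 3 days (-1.38), and Ccl12 had 7.86 ± 2.15 and 22.4 ± 1.02 CPM at 14 and 3 days (-1.52). The one that rose was Il6, at 3.47, 3.74 and 4.90 CPM at 14 days and 1.14, 0.607 and 0.576 CPM at 3 days (2.43 ± 0.45, edgeR adjusted p = 0.00472); both times lay below the sham level of 12.6 ± 2.89 CPM. The call of Tnf was lost without any 1 of the 14-day replicates (edgeR adjusted p = 0.0812, 0.0641 and 0.0641) or without 3-day replicate 3 (0.0683), and that of Ccl12 without 14-day replicate 1 (0.0945) or 3 (0.0780). Falls numbered 1, 2 and 1 without the 14-day replicates and 5, 3 and 2 without 3-day replicates 1, 2 and 3.

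The alternative activation list, 11 tested of 16, had 4 falls and no rise. Arg1, arginase 1, had 6.18, 4.91 and 7.35 CPM at 14 days and 49.9, 54.0 and 17.4 CPM at 3 days (-2.70 ± 0.40, edgeR adjusted p = 0.00088). Socs3, Tgm2 and Stat6 also fell, by 2.24, 0.90 and 0.82 on the log2 scale. The call of Stat6 was lost without any 1 of the 6 libraries (edgeR adjusted p of 0.0830 to 0.193), as was that of Tgm2 (0.0565 to 0.164). That of Socs3 was lost without 14-day replicate 2 (0.0808) or 3 (0.0841) or 3-day replicate 1 (0.0531) or 2 (0.0563).

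In lipid uptake and efflux, 23 tested of 24, the 2 rises were Lpl and Apoe and the 4 falls Msr1, Ch25h, Lrp1 and Cd36. Msr1, the class A scavenger receptor, had 66.5, 54.5 and 73.1 CPM at 14 days and 235, 264 and 156 CPM at 3 days (-1.75 ± 0.27, edgeR adjusted p = 0.00116). Among 24 genes of phagocytosis and the lysosome, Ctss, which encodes cathepsin S, and Lamp1 rose (log2 fold changes 1.18 and 0.69) and 2 members fell, Stab1 among them. Stab1, the scavenger receptor stabilin 1, had 262, 245 and 288 CPM at 14 days and 755, 858 and 791 CPM at 3 days (-1.60 ± 0.15, edgeR adjusted p = 4.48e-05). The median log2 fold changes of the lists were 0.18 and 0.10. Msr1, Stab1, Ctss and Lpl kept their calls when any 1 library was left out. Lamp1 lost its call without 14-day replicate 2 (edgeR adjusted p = 0.103) or 3-day replicate 1 (0.0515) or 3 (0.0903), and Lrp1 lost its call without any 1 of the 6 (0.0997 to 0.192). Without 3-day replicate 3 Apoe was not called (0.0578), and Ch25h was called only without 3-day replicate 1 (0.0591 to 0.143 in the other 5 fits). The falls of the lipid list numbered 2 without 3-day replicate 1 and 1 in each of the other 5 fits.

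The semaphorin receptors had 2 falls among 11. Plxnb2, the plexin B2 receptor, had 274, 296 and 299 CPM at 14 days and 460, 480 and 464 CPM at 3 days, without overlap and with tight libraries at both times (-0.69 ± 0.16, edgeR adjusted p = 0.0193). The call was lost without any 1 of the 6 libraries, with an adjusted p of 0.124, 0.0927 and 0.0918 without 14-day replicates 1, 2 and 3 and of 0.0639, 0.0785 and 0.0784 without 3-day replicates 1, 2 and 3. Plxnb3, its close relative, averaged 13.6 ± 1.71 CPM at 14 days and 37.8 ± 9.68 CPM at 3 days (SD, n = 3 each; -1.46 ± 0.24, edgeR adjusted p = 0.00225). Nrp1 and Nrp2, the neuropilin coreceptors, did not pass (0.13 and 0.22). Of 20 semaphorins, the ligands of these receptors, Sema6b fell (-1.57) and no other passed, a count near the 5.14% of all tested genes that fell. The call of Sema6b was lost without any 1 of the 14-day replicates (0.101, 0.0527 and 0.0915 without replicates 1, 2 and 3) or without 3-day replicate 3 (0.0782).

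The counts of the remaining lists stand beside 2.17% of all tested genes that rose and 5.14% that fell, and a count of 0 or 1 in lists of this size is near those shares. Of complement genes (17 tested), Cfp, which encodes properdin, C4b and C5ar1 fell and Itgax rose, with a median of 0.17. Cfp had 6.03, 4.91 and 5.57 CPM at 14 days and 21.6, 24.9 and 26.5 CPM at 3 days (-2.14 ± 0.27, edgeR adjusted p = 0.000303). Of MHC class II and costimulation genes (14 tested), 4 fell, led by H2-Eb1 (3.69 ± 1.58 CPM at 14 days and 15.3 ± 3.71 CPM at 3 days, log2 fold change -2.04). Of cytoskeleton genes (24 tested) 5 fell, Iqgap1, Tln1, Flna, Coro1a and Actn1, by 0.79 to 1.06 on the log2 scale. Of MHC class I genes (16 tested) 1 rose and 2 fell, of glycolysis and hypoxia genes (21) 2 fell, of growth factors (14) Vegfa fell, and of Fc receptors and Siglecs (16) 1 rose and 1 fell. Of oxidative stress and iron genes (19) only Hmox1 passed, of cholesterol synthesis genes (24) only Acaca, and of immediate early genes and heat shock genes (16) Fosl2 and Fos fell and Egr2 rose. None of 15 Toll-like receptor genes, 23 nuclear-encoded respiratory chain genes and 24 ribosomal protein genes passed in edgeR, with medians of -0.03, 0.18 and -0.01. At an unadjusted p under 0.05 there were 2, 3 and 2, DESeq2 called 0, 1 and 0, limma on RPKM called 0 of each, and the fit of only the 6 libraries called 3, 2 and 3. Leaving out 1 library at a time, the cytoskeleton falls numbered 0, 0 and 1 without 14-day replicates 1, 2 and 3 and 2, 1 and 1 without 3-day replicates 1, 2 and 3, and the MHC class II list had 1 fall in each of the 6 fits. H2-Eb1 lost its call without 14-day replicate 3 (edgeR adjusted p = 0.0524). Complement falls numbered 2, 1 and 1 without the 14-day replicates and 3, 2 and 1 without the 3-day replicates. The calls of Cfp, Itgax and Hmox1 held in all 6. Those of Acaca, Vegfa and Egr2 held in none (edgeR adjusted p of 0.0558 to 0.176), that of Fos held only without 3-day replicate 1 (0.0515 to 0.101 in the others), and that of Fosl2 was lost without 14-day replicate 1 (0.0601) or 3 (0.0639) or 3-day replicate 2 (0.0504). The glycolysis and Fc receptor lists had no call in any of the 6 fits, while the MHC class I list kept 1 rise only without 14-day replicate 3 and 1 fall only without 3-day replicate 1 or 2.

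Markers of other cell types were present, and some moved between the times. Markers of monocyte-derived macrophages summed to 1350, 1303 and 1213 CPM at 14 days and 2308, 2556 and 2138 CPM at 3 days, with 385 ± 157 CPM in sham. Of 15 tested of 19 listed, 3 fell (Thbs1, Vcan and Clec4e) and none rose; 9 fell in the fit of only the 6 libraries, 6 with no filter on low counts, 5 in DESeq2 and 7 without sham replicate 4. Of the defining members, Ccr2 was 12.5 ± 3.93 CPM at 14 days and 28.3 ± 6.15 CPM at 3 days and did not pass (-1.17 ± 0.36, edgeR adjusted p = 0.0639), but it passed in the fit of only the 6 libraries (0.00367), in that fit with the replicate block (0.00386), with no filter (0.00822), without sham replicate 4 (0.0349) and in DESeq2 (DESeq2 adjusted p = 0.0284). Ly6c2 had too few counts for a test. Lyz2, which microglia also express after injury, was 300 ± 87.4 CPM at 14 days and 292 ± 33.8 CPM at 3 days. Fn1 is also a defining member, so its fall (log2 fold change -1.28) is part of the monocyte-derived sum. It did not pass in the main fit and passed under 6 of 18 alternatives. Markers of border-associated macrophages summed to 918, 709 and 905 CPM at 14 days and 1694, 2056 and 1849 CPM at 3 days. The sham sum was 1552 ± 524 CPM. Of 11 tested of 13 listed, Stab1 and Dab2 were lower at 14 days and none was higher. In the fit of only the 6 libraries 4 were lower and 1 higher. Stab1 made up a large part of the sum, with means of 265 CPM at 14 days and 801 CPM at 3 days. Mrc1 and Cd163 of the same list overlapped between the times. At 14 days the monocyte-derived sum stood above its sham mean and the border-associated sum below its own. Both sums were lower at 14 days than at 3 days, as were the mitosis and interferon sums and Slfn4, Arg1 and Ccl2. The part of these macrophages in those results was not tested. Dab2 lost its call without any 1 of the 6 libraries (edgeR adjusted p of 0.0677 to 0.141), and Clec4e without any 14-day replicate (0.0608, 0.0698 and 0.0918) or 3-day replicate 1 (0.0614).

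Markers of neurons summed to 1688, 2033 and 1421 CPM at 14 days and 1029, 1147 and 1151 CPM at 3 days, with 2781 ± 1119 CPM in sham; of 17 tested, Nefl and Nefh, the light and heavy neurofilament chains, rose and none fell. Markers of astrocytes summed to 3232, 2748 and 3104 CPM at 14 days and 2560, 1661 and 2727 CPM at 3 days, and Gja1, a gap junction protein, rose. The number of astrocyte markers that rose was 6 in the fit of only the 6 libraries and 6 with no filter. It was 0 on RPKM with a pseudocount of 0.1. Sparcl1 and Ptgds, both known from glia other than microglia, rose beside these sums, and the part of other glia in their rise was not tested. In 3-day replicate 3, endothelial markers summed to 1105 CPM and fibroblast and pericyte markers to 1010 CPM, against 436 and 497 CPM and 397 and 428 CPM in the other 3-day libraries. At 14 days the endothelial sum was 633, 630 and 631 CPM and the fibroblast and pericyte sum 727, 830 and 703 CPM. Sham replicate 4 also stood high, with 5904 CPM for astrocytes against 880 and 1802 CPM in sham replicates 2 and 3. Its neuron sum was 4069 CPM against 2043 and 2231 CPM, and its endothelial sum 451 CPM against 106 and 131 CPM. The sham means include this library. Postn is itself a member of the fibroblast list. Its collagen partners Col1a1 and Col1a2 did not pass (0.86 and 0.71), and none of the other 12 tested members passed in the main fit. Across the alternatives 1 to 5 members rose, with 5 in the fit of only the 6 libraries and 3 with no filter on low counts. Markers of oligodendrocytes summed to 1314 ± 252 CPM at 14 days and 1296 ± 280 CPM at 3 days, with 3 of 14 lower. Those of oligodendrocyte precursors summed to 255 ± 5.53 and 335 ± 56.6 CPM at 14 and 3 days, with 2 of 12 lower, Vcan and Bcan. Vcan is the same gene that was counted in the matrix and monocyte-derived lists. Of endothelial markers 1 of 14 fell (Kdr), of dendritic cell markers 1 of 8 fell (Flt3) and of Schwann cell markers 1 of 4 rose (Egr2). Over all tested genes 5.14% fell and 2.17% rose, and 1 call in a list this short is not read as a shift of the cell type. Of 4 tested markers each for neutrophils, T and NK cells, B cells and ependymal cells, none passed in edgeR; DESeq2 and limma also called 0, 1 T and NK cell marker had an unadjusted p under 0.05, and the fit of only the 6 libraries called 1 T and NK cell marker and 1 B cell marker. The neutrophil sum came almost wholly from Csf3r (897 ± 73.9 CPM at 14 days and 1023 ± 121 CPM at 3 days), while S100a8 and Ly6g had too few counts for a test. The call of Nefl was lost without 14-day replicate 2 (edgeR adjusted p = 0.0565) or 3-day replicate 3 (0.0531), that of Nefh without any library but 14-day replicate 3 (0.0676 to 0.157), and that of Gja1 without any 1 of the 6 (0.0830 to 0.167). Egr2 too was called in none of the 6 (0.0815 to 0.129), Flt3 only without 3-day replicate 2 (0.0970 to 0.212 in the others) and Kdr only without 3-day replicate 1 or 2 (0.0958 to 0.166). The oligodendrocyte list kept 1 fall without 14-day replicate 2 or 3-day replicate 2 and none in the other 4 fits. The precursor list kept only Vcan in all 6, and Bcan was called in none of them (edgeR adjusted p of 0.0620 to 0.244).

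**Figure D5:**
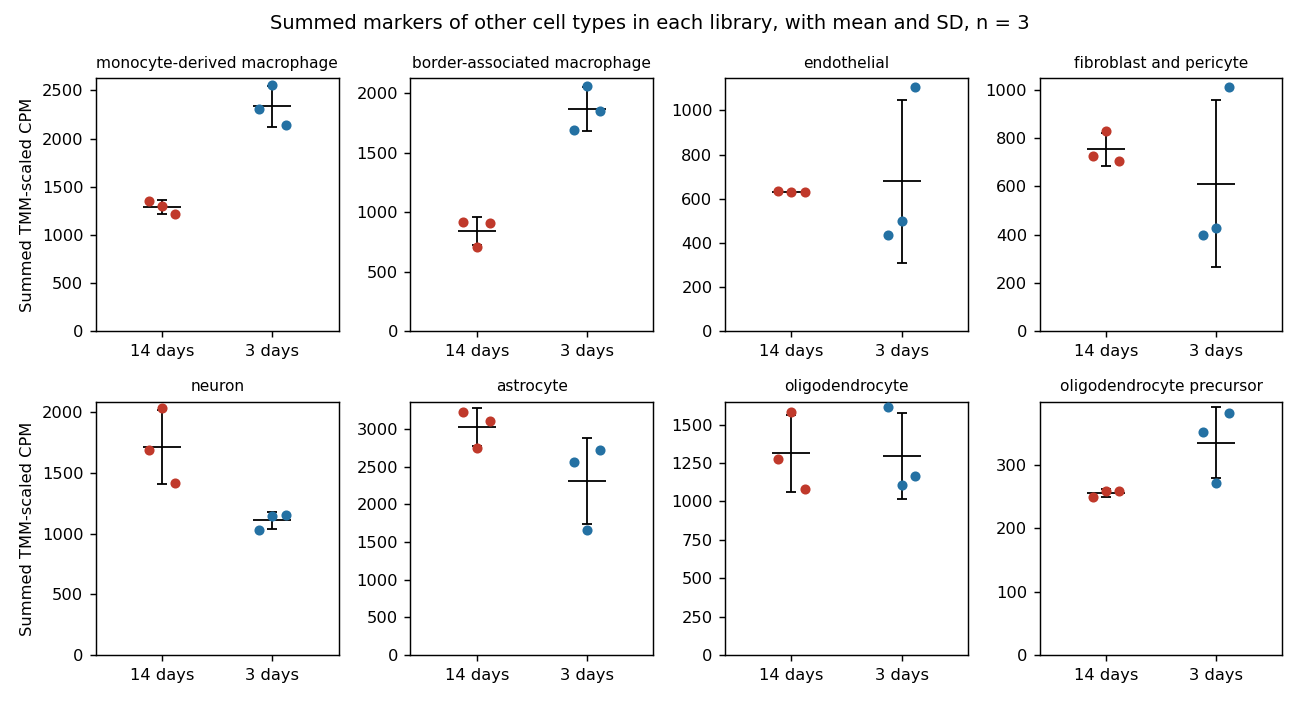
Summed markers of 8 other cell types in each library, in TMM-scaled CPM on axes that start at 0. Points are the 3 libraries at 14 days (red, left) and at 3 days (blue, right), with the mean and SD. The sums of both macrophage lists were lower at 14 days without overlap, and the neuron sum was higher without overlap. The astrocyte sums nearly touched, at 2748 CPM in the lowest 14-day library and 2727 CPM in the highest 3-day library. In 1 library at 3 days, endothelial markers (1105 CPM) and fibroblast and pericyte markers (1010 CPM) stood high.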

How the data were processed

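RNA of GFP-positive nuclei from mouse spinal cord was amplified by an isothermal method with 1 primer type and sequenced, per the labels' protocols. The submitters' processing notes name the read counter featureCounts 1.4.6-p3 and list GRCm38 together with mm10. The aligner and the strand setting are not given in these sources, so reads of overlapping genes cannot be told apart. The authors deposited raw counts per Ensembl gene and, beside them, RPKM, which rescale those counts by gene length and library total.

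The main test was edgeR 4.0.16 (R 4.3.3) on the deposited counts. Genes kept by filterByExpr (18451 of 49585) were normalized by TMM, and a quasi-likelihood fit of 4 groups used all 12 libraries; their common biological coefficient of variation was 0.271. P-values were adjusted by Benjamini-Hochberg across every tested gene, at a threshold of 0.05. SEs are log2 fold changes over the root of F. Levels are TMM-scaled CPM and carry gene length, so they are compared within a gene. Correlations between libraries of 1 time were 0.962 to 0.979, and their counts differed by more than sampling noise (chi-square of at least 4.36 for each degree of freedom), so none was treated as a duplicate.

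The comparison and the 40 gene lists (14 for other cell types) were chosen with earlier results of these data known. Named genes are Plxnb2; among genes past the threshold, the 15 that rose most and the 15 that fell most with non-overlapping libraries and at least 10 CPM at the higher time, passing over predicted and clone-named genes, pseudogenes and shared symbols; and up to 4 members of each list with the smallest adjusted p. Others were named after their values were seen, and some eligible genes are not described. Promoter sequences are from RefSeq (GRCm38.p6). As alternatives, size factors by median ratio, DESeq2 1.42.0, other filters on low counts, a fit of the 6 libraries alone, the replicate number as a term, limma 3.58.1 on log2 RPKM (pseudocount 1 or 0.1), summed Y-linked CPM as a covariate, and fits with a library left out were run. On simulated counts with 200 changed genes among 18451, the test recovered 24% at 2-fold and 78% at 4-fold at these depths, with 7 false calls among 109. The changed genes were drawn only from those above a minimum expected count, so recovery of low-count genes was not measured. Their share was also smaller than the 7.31% called in the data. The adjusted p depends on that share, so these recoveries need not hold for the comparison itself.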

Additional observations from a re-analysis of the deposited data

How the results depend on the processing

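The number of genes changed, 1349 (401 higher and 948 lower at 14 days), was within 1.5 times under median-ratio size factors (1315), DESeq2 (2023, but 754 higher) and the stricter filter (1216). It was 2045 with no filter on low counts (692 higher), 4886 in the fit of only the 6 libraries (2133 higher, 2753 lower) and 2627 without sham replicate 4 (1011 higher, 1616 lower). With the Y-linked sum as a covariate it was 682 (162 higher, 520 lower). On RPKM with a pseudocount of 1, limma called 1219, of which 663 were lower, 848 with no filter (494 lower), and 1007 with a pseudocount of 0.1 (533 lower). The share of lower calls was 70.3% on counts, 56.3% in the fit of only the 6 libraries and 52.9% to 58.3% in the limma fits. Leaving out 1 of the 6 libraries gave 435 to 844 changed genes, 79 to 292 higher and 323 to 562 lower. The cause of these differences was not tested.

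Plxnb2 kept its sign throughout but not its call: -0.60 on RPKM with a pseudocount of 1 (limma adjusted p = 0.0894, or 0.150 with no filter), -0.61 with a pseudocount of 0.1 (0.0980), -0.66 with the Y-linked covariate (edgeR adjusted p = 0.0670) and -0.69 to -0.63 with 1 library left out. Of 111 named genes that passed, 56 passed under all alternatives run and 55 lost the call under at least 1; none of the 111 turned its direction. Gpnmb, which did not pass, turned to -0.073 with the Y-linked covariate.

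The replicate numbers did not pair the libraries: deviations of same-numbered 14-day and 3-day libraries correlated at -0.00, 0.06 and -0.03. With the replicate block, 1151 genes were called, and 4687 in the fit of only the 6 libraries with the block (2073 higher, 2614 lower).

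Low depth limits genes of a few CPM most: with libraries of 4037508 to 10670804 counts, a level of 1 CPM rests on few reads.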

Other observations

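Neighbouring genes of the imprinted region between Dlk1 and Dio3 (chr12:109452823-110281097, GRCm38) were lower at 14 days. The region was chosen after Mirg was seen among the largest falls. Of 10 tested genes there, 7 fell, none rose and 9 had a negative log2 fold change, with a median of -2.97, beside 5.14% of all tested genes that fell. Meg3, a long noncoding RNA made from the maternal copy, had 139, 222 and 113 CPM in the 14-day libraries and 1332, 1006 and 1692 CPM in the 3-day libraries (log2 fold change -3.09 ± 0.46, edgeR adjusted p = 0.000866), with 767 CPM at 7 days and 1561 ± 1197 CPM in sham. Rian, the noncoding host of small nucleolar RNAs, had 35.9, 46.1 and 29.6 CPM at 14 days and 222, 150 and 283 CPM at 3 days (-2.56 ± 0.34, edgeR adjusted p = 0.00043). Rtl1, a paternally expressed gene derived from a retrotransposon, averaged 2.40 ± 1.57 CPM at 14 days and 18.7 ± 7.60 CPM at 3 days (-2.99). Dlk1, at the other end, was 7.99 ± 2.31 CPM at 14 days and 4.66 ± 0.884 CPM at 3 days and did not pass (0.79, edgeR adjusted p = 0.404). Several of these transcripts are known to be abundant in neurons. In the same libraries the neuron markers summed to 1714 ± 307 CPM at 14 days and 1109 ± 69.7 CPM at 3 days, with 2 of 17 higher and none lower. The part of neuronal RNA in the falls of this region was not tested. Reads of overlapping transcripts in the region cannot be told apart without the strand setting.

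The genes higher at 14 days included many entries of the annotation type TEC, which marks transcripts still to be experimentally checked. They were 99 of the 401 genes higher at 14 days (24.7%) and 43 of the 948 lower (4.54%), while 6.67% of tested genes are of this type. Protein-coding genes were 48.6% of the higher and 86.2% of the lower calls. Of 98 such higher entries with a position, 71 (72.4%) lay within a protein-coding gene on the same strand. The share was 81.4% for lower TEC entries and 68.0% for TEC entries that did not pass. The host gene itself was higher at 14 days for 6 of the 71 (8.45%). It was higher for 1.77% of the hosted entries that did not pass and for 0 of the lower ones. The counting of intronic reads of the host gene was not tested.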
